A study of Mus musculus with 22 samples.

Results

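The genes described here are 48 genes of DNA replication and S phase, the part of the cell cycle in which the genome is copied. They were chosen by name, with earlier results of these data known, and a probe was assigned to a member where its RefSeq accession maps to the member's symbol. All 48 passed the filter on dim probes and were tested among 22326 genes. Levels are log2 values of the scanner's background-corrected signal after quantile normalisation over all arrays, and differences are differences of such log2 values, compared within a gene only. The RNA came from bone marrow-derived macrophages (BMDM), cells that differentiate from mouse marrow in culture with the growth factor M-CSF. The donor mice were male, on the strain C57BL/6 per the labels, and either wild-type (wt), deficient in the protein kinase MK2 (MK2-/-) or deficient in MK2 and the related kinase MK3 (MK2/3-/-). BMDM were kept for 360 min with 100 ng per ml lipopolysaccharide (LPS), a cell wall molecule of Gram-negative bacteria, or in medium alone. There were 4 arrays of wt in medium and 3 with LPS (mice of 12 to 13 weeks), 4 and 4 of MK2-/- (10 to 13 weeks), and 3 and 4 of MK2/3-/- (11 to 14 weeks), 22 arrays in all. The medium of all groups was free of M-CSF from shortly before the treatment, so cells of the medium groups had also lost the growth factor. All groups were grown with M-CSF in the same way.

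Replication starts at origins, where the origin recognition complex with Cdc6 and Cdt1 loads the ring-shaped MCM helicase. Cdc45, the GINS complex and Mcm10 turn the loaded ring into an active helicase, after which primase and the polymerases copy the strands, held on the DNA by the PCNA clamp that replication factor C loads. Most of these genes are classical targets of the E2F transcription factors, which are held back by the retinoblastoma protein until a cyclin-dependent kinase releases them. Cultured BMDM divide in M-CSF, and LPS is known to arrest their proliferation.

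Arrays had a median processed signal between 32.7 and 108, and 61.0% to 78.0% of probes were well above background. Replicate 3 of both treatments of MK2-/- BMDM went against the labelled sex, with a mean log2 signal of 2.0 and 2.7 for the Y-linked genes Ddx3y and Eif2s3y, compared with 10.6 to 11.8 on the other 20 arrays, and a log2 signal of 7.7 and 7.8 for Xist, compared with at most 5.8. Replicate 3 of MK2-/- with LPS also had 2927 spots marked as outliers by the scanner software, compared with 115 to 261 on the others. Counts without both arrays are given beside the results that they change. All arrays of a genotype lay on 1 slide, so genotype and slide cannot be told apart, while both treatments of a genotype lay together on its slide. As a check of the labels, Mapkapk2, the gene of MK2, lay at a log2 signal of 14.3 to 15.3 in wt and at most 11.9 in the knockouts with LPS. Mapkapk3, the gene of MK3, lay at 7.7 to 8.5 in MK2/3-/- and at 11.9 to 12.6 in MK2-/- BMDM with LPS. Of 9 macrophage markers 8 were tested, and 7 of these were well above background on every array.

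The promoters were read first. RefSeq windows of GRCm38.p6, from 250 bases before to 50 bases after a gene's start, were found for 38 of the 48 members, 5 of them with more than 1 start. The E2F letters TTTCCCGC, TTTCGCGC, TTTGCCGC or TTTGGCGC on either strand were in the windows of 16 of these 38 genes (42.1%), compared with 3.71% of 14538 tested genes with a window and 2.6% of 27025 genes of the table. Without the first T, the 7 letters TTCCCGC or TTCGCGC or TTGCCGC or TTGGCGC, which every match of the longer set contains, were in 26 of 38 (68.4%), compared with 15.5% and 10.9%. CCAAT, the letters that NF-Y binds, was in 23 of 38 windows (60.5%), compared with 42.3% and 41.1%. TTTGAA, the letters of the cell-cycle homology region known from genes of mitosis, was in 5 of 38 (13.2%), compared with 16.4% and 20.2%. Of the genes lower with LPS in all genotypes, 17 of 20 with a window held the 7 letters, compared with 9 of 18 among the other members. The longer E2F letters did not split in this way, with 8 of 20 and 8 of 18, nor did CCAAT, with 11 of 20 and 12 of 18. The other members include genes lower with LPS in both knockouts, such as Mcm2, Mcm6, Mcm7, Gins3 and Dut. The split rests on calls from these same data, and a part of the letters in the response was not tested. The 120 bases before the start are shown for 5 genes with different responses to LPS (called lower in the knockouts, called in no genotype, or called higher), with the 7 letters in capitals. In the stretches shown, Mcm6 has 2 places at which matches on opposite strands overlap, Gins3, Orc1 and Rfc3 have 1 match each, and Tyms has none.
Mcm6, chr1:128359706-128359825, minus strand: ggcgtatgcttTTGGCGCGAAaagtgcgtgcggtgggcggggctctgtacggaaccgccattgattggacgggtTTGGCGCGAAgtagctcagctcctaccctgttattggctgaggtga
Gins3, chr8:95633439-95633558, plus strand: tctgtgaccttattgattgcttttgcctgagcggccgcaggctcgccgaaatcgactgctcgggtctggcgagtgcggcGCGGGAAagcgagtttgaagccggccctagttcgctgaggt
Orc1, chr4:108579334-108579453, plus strand: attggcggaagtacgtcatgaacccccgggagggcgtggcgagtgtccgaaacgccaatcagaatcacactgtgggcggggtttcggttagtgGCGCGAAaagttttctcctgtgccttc
Rfc3, chr5:151651209-151651328, minus strand: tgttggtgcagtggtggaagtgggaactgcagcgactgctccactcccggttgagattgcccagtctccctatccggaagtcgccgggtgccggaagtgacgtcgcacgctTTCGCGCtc
Tyms, chr5:30073626-30073745, minus strand: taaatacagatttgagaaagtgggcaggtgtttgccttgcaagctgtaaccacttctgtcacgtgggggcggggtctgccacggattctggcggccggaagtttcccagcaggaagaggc

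LPS lowered most of the replication genes in every genotype. In wt BMDM 26 of 48 were lower and 2 were higher than in medium at an adjusted p below 0.05 (limma, Benjamini-Hochberg over all 22326 genes), compared with 23.6% lower and 18.7% higher among all genes. In MK2-/- BMDM 34 were lower and 1 was higher, against a background of 27.2% and 17.6%, and in MK2/3-/- BMDM 35 were lower and 3 were higher, against 28.0% and 20.3%. The median log2 difference of the members was -1.25, -1.90 and -2.0, while the median of all genes was -0.04, -0.01 and 0.01. Lower in all 3 genotypes were 25 members, Tyms was higher in all 3, and 9 members (Orc1, Cdc45, Gins2, Mcm10, Pola1, Pola2, Pcna, Ccne1 and Slbp) were called in none. Without the 2 arrays that went against their labelled sex, 31 members were lower and 1 was higher in MK2-/- BMDM, with the calls of Dscc1, Rpa2 and Dut lost, and 36 were lower in MK2/3-/- BMDM. Scaling each array by its 75th percentile raised the median difference of all genes to 0.30, 0.28 and 0.29 and turned the split of all genes to 28.5% higher and 18.6% lower in wt, 23.9% and 20.7% in MK2-/-, and 25.7% and 21.8% in MK2/3-/-. Under that scaling 26, 32 and 30 members were lower and 3, 2 and 3 were higher, and 43, 43 and 44 of 48 lay below the median of all genes. Cd34, a marker of haematopoietic progenitors, fell as well, with log2 differences of -2.15, -2.97 and -2.86 (limma adjusted p = 0.0274, 0.00159 and 0.00380), whereas Kit, the other progenitor marker, was higher (1.48, 2.32 and 1.94, adjusted p = 8.90e-05, 9.99e-08 and 2.70e-06). In medium Kit was well above background on only 2 of 4 wt, 0 of 4 MK2-/- and 1 of 3 MK2/3-/- arrays, which limits these sizes. The summed signal of Cd34 and Kit, most of it from Cd34, ranged from 6280 to 20100 in wt in medium and 1990 to 3690 with LPS, from 7890 to 37400 and 745 to 3640 in MK2-/-, and from 12600 to 26500 and 522 to 5850 in MK2/3-/- BMDM, and its part in the results was not tested. In bulk RNA, fewer dividing cells and less RNA per cell cannot be told apart.

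**Figure D1:**
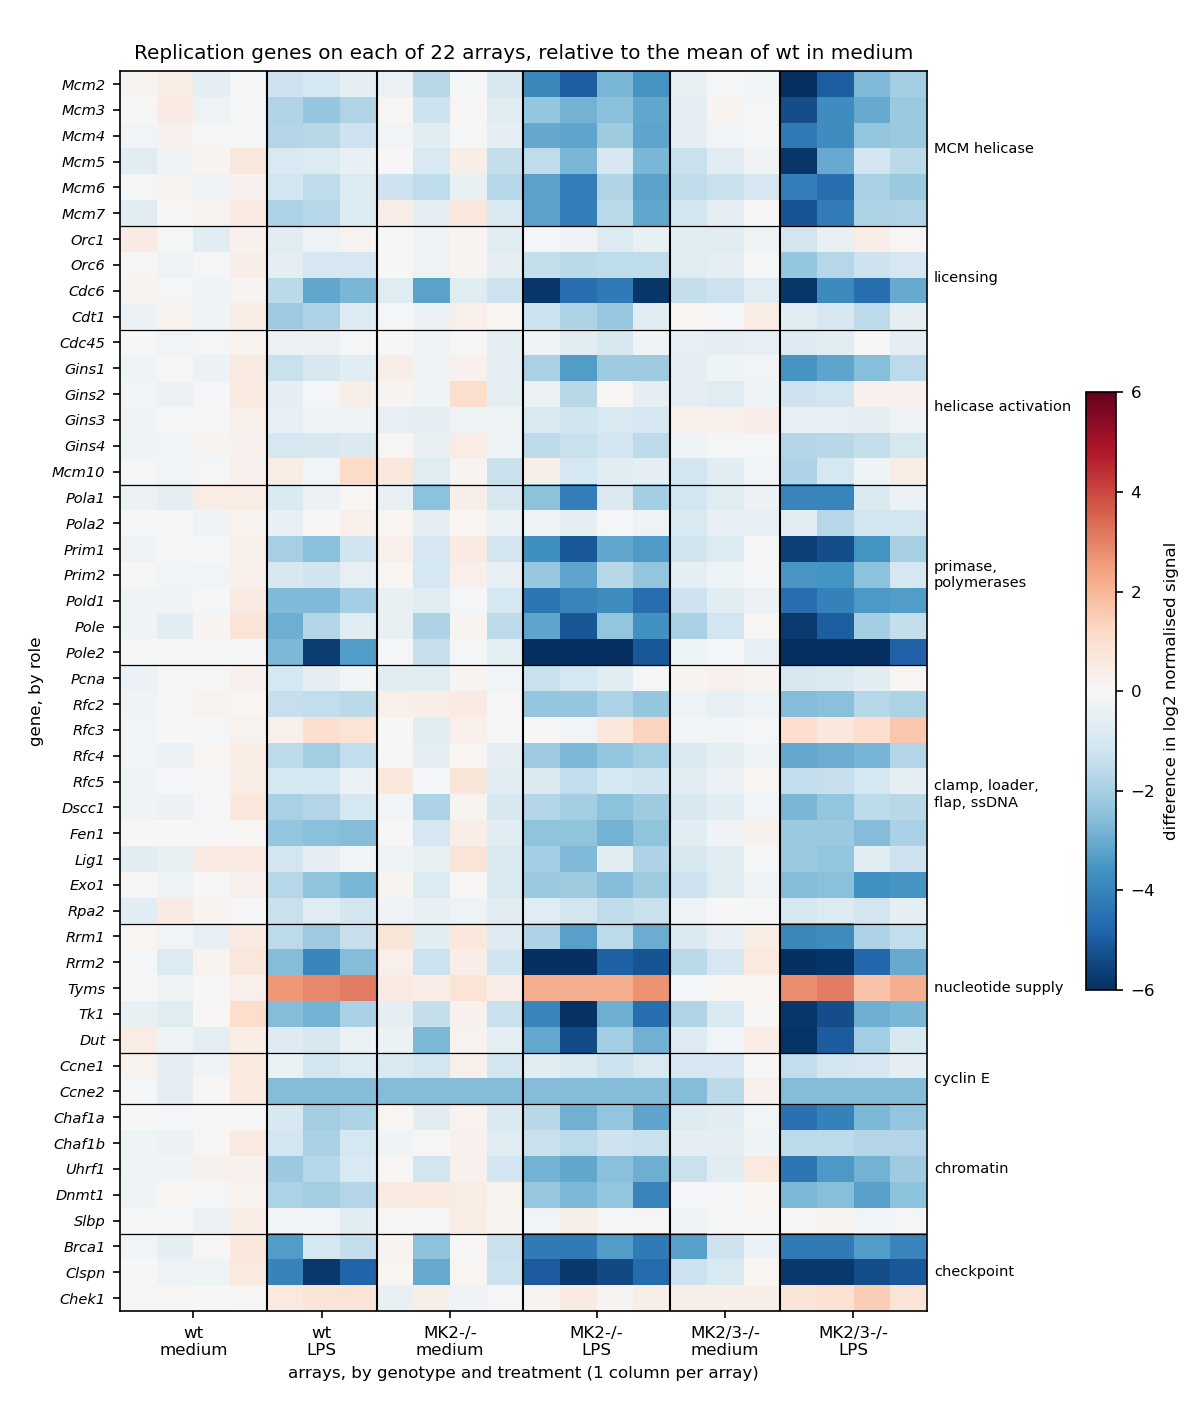
Log2 normalised signal of each of the 48 genes (rows, by role) on each of the 22 arrays (columns, by genotype and treatment), as the difference from the mean of the 4 wt arrays in medium. Most genes lie below the wt medium mean in the LPS columns of all genotypes, with the member median at -0.84 to -1.34 in wt, -1.86 to -2.62 in MK2-/- and -1.56 to -2.71 in MK2/3-/- BMDM (colours are limited to 6 log2 units), and Tyms and Chek1 are above the wt medium mean on all 11 LPS arrays.

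The arrays of a group differed in how far the members lay below wt in medium. With LPS, the median of the 48 differences was -1.28, -1.34 and -0.84 on the wt arrays, -2.09, -2.62, -1.86 and -2.24 on the MK2-/- arrays, and -2.71, -2.61, -1.89 and -1.56 on the MK2/3-/- arrays. All knockout arrays with LPS therefore lay below all wt arrays with LPS. In medium, the medians were 0.02, -0.71, 0.22 and -0.67 in MK2-/- and -0.75, -0.54 and -0.05 in MK2/3-/- BMDM, compared with -0.17, -0.15, -0.03 and 0.34 in wt, so that 4 of 7 knockout arrays lay below every wt array. Stromal markers also differed between arrays. Col1a1, a collagen gene of fibroblasts, had a log2 signal of 13.6, 11.6 and 12.5 on the wt arrays with LPS. With LPS it was 7.3, 6.9, 10.2 and 12.1 in MK2-/- and 5.8, 7.3, 10.6 and 13.2 in MK2/3-/- BMDM. In MK2/3-/- BMDM with LPS this is also the order of the member medians, but in wt and MK2-/- BMDM with LPS it is not. Against wt with LPS, the log2 difference in MK2-/- and MK2/3-/- BMDM was -3.43 and -3.35 for Col1a1 and -1.17 and -0.73 for Col3a1. It was 1.69 and 1.85 for Dcn and 0.83 and -0.41 for Pdgfrb, so the markers did not share a direction, and none was called. The summed signal of all 4 stromal markers (Col1a1, Col3a1, Dcn and Pdgfrb) ranged from 4460 to 14400 in wt, 2180 to 5650 in MK2-/- and 1260 to 10800 in MK2/3-/- BMDM with LPS, and their part in the genotype differences was not tested.

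The MCM helicase is a ring of 6 subunits, Mcm2 to Mcm7. Mcm3 (NM_008563) had a log2 signal of 12.6, 13.1, 12.3 and 12.5 on the wt arrays in medium and 10.8, 10.3 and 10.8 with LPS. In MK2-/- BMDM it was 12.7, 11.4, 12.7 and 11.9 in medium and 10.3, 9.8, 10.1 and 9.5 with LPS, and in MK2/3-/- BMDM 12.1, 12.8 and 12.5 in medium and 7.3, 8.9, 9.6 and 10.4 with LPS. No LPS array reached a medium array of its genotype. The log2 difference was -1.95 (SE 0.50, limma adjusted p = 0.00369) in wt, -2.23 (SE 0.46, adjusted p = 0.000489) in MK2-/- and -3.43 (SE 0.50, adjusted p = 1.11e-05) in MK2/3-/- BMDM. Mcm4 was also lower in all 3 genotypes, by 1.54 to 2.92 on the log2 scale. Mcm2, Mcm6 and Mcm7 were lower in both knockouts and not called in wt, where their values were -0.96, -1.15 and -1.44 (adjusted p = 0.406, 0.107 and 0.114). The LPS and medium arrays of wt did not overlap for Mcm6 and Mcm7, while for Mcm2 they met at 9.48. Mcm5 was lower in MK2/3-/- BMDM alone (-2.16, adjusted p = 0.0292), with -0.74 in wt and -1.50 in MK2-/-, and the difference between genotypes was not called. In MK2/3-/- BMDM with LPS, Mcm2 had log2 signals of 2.5, 5.1, 7.4 and 8.0, of which 3 were well above background.

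Of the licensing genes, Cdc6, Cdt1 and Orc6 were lower with LPS in all 3 genotypes. Cdc6 (NM_011799), the ATPase that with Cdt1 loads the MCM ring, had a log2 signal of 8.0, 7.7, 7.6 and 8.0 in wt in medium and 6.2, 4.7 and 5.1 with LPS. Its values were 7.1, 4.6, 7.1 and 6.6 in medium and 2.0, 3.3, 3.6 and 2.0 with LPS in MK2-/-, and 6.4, 6.6 and 7.1 in medium and 2.0, 4.0, 3.3 and 4.8 with LPS in MK2/3-/- BMDM. All groups with LPS were separate from their medium groups, but with LPS the probe was well above background on only 2 of 3 wt arrays and on 1 of 4 arrays of each knockout. The log2 difference was -2.47 (SE 0.62, limma adjusted p = 0.00339), -3.63 (SE 0.58, adjusted p = 3.25e-05) and -3.18 (SE 0.62, adjusted p = 0.000282). Cdt1, the loading partner that is destroyed once S phase begins, had differences of -1.63, -1.52 and -1.08, and Orc6, a subunit of the origin recognition complex, of -0.87, -1.32 and -1.12. Orc1, the largest subunit, stayed between 4.8 and 6.4 on all 22 arrays and was called in no comparison with LPS.

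Among the genes of helicase activation, the GINS subunits did not move alike. Gins4 (NM_024240) had a log2 signal of 11.3, 11.4, 11.7 and 11.8 in wt in medium and 10.5, 10.6 and 10.7 with LPS. In MK2-/- BMDM it was 11.6, 11.1, 12.0 and 11.3 in medium and 10.0, 10.2, 10.4 and 10.0 with LPS, and in MK2/3-/- BMDM 11.3, 11.5 and 11.5 in medium and 9.8, 9.9, 10.1 and 10.5 with LPS. The groups did not overlap within any genotype, and the log2 difference was -0.99 (SE 0.21, limma adjusted p = 0.000738), -1.35 (SE 0.19, adjusted p = 8.75e-06) and -1.35 (SE 0.21, adjusted p = 1.97e-05). Gins1 (NM_027014) had 9.9, 10.2, 9.8 and 10.7 in wt in medium and 8.8, 9.2 and 9.5 with LPS, a difference of -0.97 that missed the threshold (SE 0.41, adjusted p = 0.0617). With LPS it lay at 8.2, 6.8, 8.0 and 8.0 in MK2-/- and at 6.6, 7.0, 7.6 and 8.6 in MK2/3-/- BMDM, from 10.5, 9.9, 10.4 and 9.6 and from 9.6, 9.9 and 10.0 in medium. Both falls passed the test, with differences of -2.34 (SE 0.38, adjusted p = 3.73e-05) and -2.42 (SE 0.41, adjusted p = 5.84e-05). Gins3, described with the genotypes, moved by less than 1 log2 unit. Gins2, Cdc45 and Mcm10 were called in no genotype, with differences between -0.68 and 0.48.

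Of primase and the polymerases, 3, 5 and 5 of 7 genes were lower in wt, MK2-/- and MK2/3-/- BMDM. Pole2 (NM_011133), the small subunit of the leading-strand polymerase epsilon, had a log2 signal of 9.5, 9.5, 9.4 and 9.5 in wt in medium and 6.8, 3.8 and 6.1 with LPS. In the knockouts with LPS it was 2.0, 3.2, 2.2 and 4.4 (MK2-/-) and 2.0, 2.0, 3.4 and 4.6 (MK2/3-/-), from 9.4, 8.1, 9.4 and 8.9 and from 9.2, 9.4 and 9.0 in medium. No LPS array of MK2-/- BMDM was well above background, so that the fall was at least 33.4-fold, while 1 of 4 arrays was above background in MK2/3-/-. The fitted log2 difference was -3.92 (SE 0.68, limma adjusted p = 0.000128) in wt, -6.02 (SE 0.63, adjusted p = 2.02e-07) in MK2-/- and -6.20 (SE 0.68, adjusted p = 3.83e-07) in MK2/3-/-. Pold1 (NM_011131), the catalytic subunit of polymerase delta, had 11.2, 11.2, 11.4 and 12.0 in wt in medium and 8.8, 8.8 and 9.4 with LPS. It fell from 11.0, 10.7, 11.4 and 10.4 to 7.1, 7.5, 7.7 and 6.9 in MK2-/- and from 10.2, 10.8 and 11.1 to 6.9, 7.4, 8.0 and 8.1 in MK2/3-/- BMDM. The differences were -2.43 (SE 0.32, adjusted p = 5.18e-06), -3.58 (SE 0.29, adjusted p = 7.89e-09) and -3.10 (SE 0.32, adjusted p = 1.50e-07), with no overlap of LPS and medium arrays. Prim1, the catalytic subunit of primase, was lower in all 3 genotypes (-1.90, -3.50 and -3.48), and Prim2, its partner, in the knockouts (-2.10 and -2.33, with -0.84 and adjusted p = 0.170 in wt). Pole, the catalytic subunit of polymerase epsilon, was also called in the knockouts only (-2.66 and -2.56, with -1.79 and adjusted p = 0.120 in wt). Pola1 and Pola2, both subunits of polymerase alpha, were not called with LPS in any genotype.

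Of the 10 genes of the clamp, its loader, flap processing and single-strand binding, Rfc2, Rfc4, Rfc5, Dscc1, Fen1, Exo1 and Rpa2 were lower in all 3 genotypes. The call of Rfc5 in MK2/3-/- BMDM (-0.80) was lost in 8 of 18 other settings and in 8 of 22 fits without 1 array. Fen1 (NM_007999), the nuclease that removes RNA-primed flaps, had a log2 signal of 13.5, 13.5, 13.5 and 13.6 in wt in medium and 11.2, 11.0 and 10.9 with LPS. It fell from 13.5, 12.5, 13.9 and 12.9 to 11.1, 11.1, 10.7 and 11.1 in MK2-/- and from 12.9, 13.3 and 13.8 to 11.3, 11.3, 10.9 and 11.6 in MK2/3-/- BMDM. All LPS arrays lay near 11 whatever the genotype, and the differences were -2.47 (SE 0.27, limma adjusted p = 5.70e-07), -2.20 (SE 0.25, adjusted p = 4.91e-07) and -2.08 (SE 0.27, adjusted p = 2.53e-06). Rfc2 (NM_020022), a small subunit of the clamp loader, had 11.2, 11.3, 11.6 and 11.5 in wt in medium and 10.0, 9.9 and 9.8 with LPS. In MK2-/- cells it fell from 11.7, 11.8, 11.9 and 11.3 to 9.1, 9.1, 9.5 and 9.1, and in MK2/3-/- BMDM from 11.1, 10.9 and 11.1 to 8.8, 8.9, 9.7 and 9.5. The groups were separate, with differences of -1.51 (SE 0.21, adjusted p = 8.66e-06), -2.48 (SE 0.19, adjusted p = 3.28e-09) and -1.85 (SE 0.21, adjusted p = 4.16e-07). Rfc3 (NM_027009), another small subunit, went the other way. It had 9.0, 9.2, 9.1 and 9.4 in wt in medium and 9.5, 10.2 and 10.0 with LPS, 9.2, 8.5, 9.5 and 9.1 against 9.2, 9.0, 9.8 and 10.5 in MK2-/-, and 9.0, 9.0 and 9.1 against 10.2, 9.8, 10.2 and 10.8 in MK2/3-/- BMDM. LPS and medium arrays overlapped in MK2-/- alone. Only the MK2/3-/- difference was called (1.22, SE 0.31, adjusted p = 0.00305), with 0.73 (SE 0.31, adjusted p = 0.0682) in wt and 0.57 (SE 0.29, adjusted p = 0.122) in MK2-/-, and the interactions were not called. Pcna, the clamp itself, was called in no genotype (-0.62, -0.39 and -0.75, adjusted p = 0.113, 0.288 and 0.0507). In MK2/3-/- BMDM it became called in 8 of 18 other settings and in 7 of 22 fits without 1 array, with values from -0.97 to 0.18. Lig1, the ligase that joins Okazaki fragments, was called lower in MK2-/- alone (-1.60, adjusted p = 0.00739). Its mean log2 signal was also lower with LPS in wt (13.33 to 12.74) and in MK2/3-/- BMDM (12.81 to 11.73), without a call. In MK2/3-/- BMDM it became called in 4 of 18 other settings, and its interactions were not called.

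Deoxynucleotide supply held the fall of Rrm2 and the rise of Tyms side by side. Rrm2 (NM_009104), the subunit of ribonucleotide reductase that is made in S phase, had a log2 signal of 13.0, 12.3, 13.3 and 13.8 in wt in medium and 10.5, 9.2 and 10.5 with LPS. It fell from 13.4, 11.8, 13.5 and 11.9 to 7.1, 6.6, 8.2 and 7.9 in MK2-/- and from 11.5, 12.1 and 13.7 to 6.4, 7.2, 8.4 and 10.1 in MK2/3-/- BMDM. The medium and LPS arrays did not overlap, and the differences were -3.02 (SE 0.74, limma adjusted p = 0.00275), -5.17 (SE 0.68, adjusted p = 3.72e-06) and -4.42 (SE 0.74, adjusted p = 5.55e-05). Tyms (NM_021288), thymidylate synthase, had 7.2, 6.9, 7.2 and 7.5 in wt in medium and 9.8, 10.1 and 10.3 with LPS. It rose from 7.7, 7.6, 8.0 and 7.6 to 9.4, 9.4, 9.4 and 9.9 in MK2-/- and from 7.1, 7.3 and 7.3 to 10.0, 10.3, 8.9 and 9.4 in MK2/3-/- BMDM. Every LPS array was above every medium array, at a difference of 2.86 (SE 0.26, adjusted p = 5.17e-08), 1.81 (SE 0.24, adjusted p = 3.13e-06) and 2.43 (SE 0.26, adjusted p = 2.01e-07). Tk1, the thymidine kinase of the salvage pathway, was lower in all 3 genotypes (-2.41, -3.57 and -3.28), as was Rrm1, the large reductase subunit (-1.71, -2.42 and -2.44). Dut, which removes dUTP, was lower in the knockouts (-2.50 and -3.31) and not called in wt (-0.74, adjusted p = 0.576).

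Of the cyclin E genes, whose products drive entry into S phase with Cdk2, Ccne1 was not called in any genotype (-0.75, -0.24 and -0.32). Its second probe was called in MK2-/- BMDM (-1.36, adjusted p = 0.0291), with -1.29 and -0.99 in wt and MK2/3-/-. Ccne2 (NM_001037134) lay at the lower end of the scale. In medium its log2 signal was 4.5, 4.1, 4.7 and 5.2 in wt, 2.0 on all 4 MK2-/- arrays and 2.0, 3.0 and 4.9 in MK2/3-/- BMDM, and it was 2.0 on all 11 arrays with LPS. Only 2 of 4 wt arrays and 1 of 3 MK2/3-/- arrays, all in medium, were well above background, so that the fall in wt was at least 1.46-fold (fitted -2.63, SE 0.41, adjusted p = 4.38e-05). In MK2/3-/- BMDM the groups overlapped, and the call (fitted -1.28, SE 0.41, adjusted p = 0.0152) is given with no fold. The probe passed the filter on dim probes only through medium arrays, where it is high. Both calls, which are among the 26 and 35 lower members, are therefore given as a description. No order can be given among the groups at 2.0.

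Of the genes of chromatin, DNA methylation and histone mRNA, Dnmt1, Uhrf1, Chaf1a and Chaf1b were lower with LPS in all 3 genotypes. Dnmt1 (NM_010066), the methyltransferase that copies methylation to the new strand, had a log2 signal of 9.4, 9.8, 9.6 and 9.9 in wt in medium and 7.8, 7.6 and 7.9 with LPS. It fell from 10.2, 10.2, 10.1 and 9.9 to 7.4, 7.0, 7.3 and 5.7 in MK2-/- and from 9.6, 9.6 and 9.8 to 7.0, 7.1, 6.4 and 7.2 in MK2/3-/- BMDM. No LPS array reached a medium array, and the differences were -1.92 (SE 0.30, limma adjusted p = 4.24e-05), -3.24 (SE 0.28, adjusted p = 1.51e-08) and -2.76 (SE 0.30, adjusted p = 3.35e-07). Uhrf1, which guides Dnmt1 to newly made DNA, had -1.61, -2.36 and -2.71. Its second probe gave -1.60 and -2.29 in wt and MK2-/- but -0.40 (adjusted p = 0.639) in MK2/3-/- BMDM. Chaf1a and Chaf1b, subunits of the assembly factor that places histones behind the fork, had differences between -2.87 and -1.20. Slbp, which binds the end of histone mRNA, was called in no genotype.

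Checkpoint genes moved in opposite directions. Clspn (NM_175554), which encodes claspin, the adaptor through which the kinase ATR activates Chk1, had a log2 signal of 7.8, 7.5, 7.5 and 8.4 in wt in medium and 3.8, 2.0 and 3.0 with LPS. It went from 7.9, 4.8, 7.9 and 6.5 to 2.8, 2.0, 2.4 and 3.2 in MK2-/- and from 6.5, 6.9 and 7.9 to 2.0, 2.0, 2.5 and 2.7 in MK2/3-/- BMDM. With LPS it was well above background on 1 wt array and on no knockout array, so that it fell at least 7.37-fold in MK2-/- and 8.35-fold in MK2/3-/-, and the fitted difference in wt was -4.84 (SE 0.58, limma adjusted p = 2.11e-06). Chek1 (NM_007691), the gene of the kinase Chk1 itself, had 6.7, 6.9, 6.8 and 6.9 in wt in medium and 7.4, 7.6 and 7.6 with LPS. Its values were 6.4, 7.2, 6.6 and 6.7 against 7.0, 7.3, 7.0 and 7.2 in MK2-/- and 7.2 on all 3 medium arrays against 7.6, 7.7, 8.3 and 7.6 in MK2/3-/- BMDM. The rise was called in wt (0.76, SE 0.19, adjusted p = 0.00350) and in MK2/3-/- (0.60, SE 0.19, adjusted p = 0.0135) but not in MK2-/- BMDM (0.37, SE 0.18, adjusted p = 0.0989), and the interaction was not called. Brca1, a gene of homologous repair, was lower in all 3 genotypes (-1.93, -3.12 and, with no MK2/3-/- array above background, at least 1.5-fold).

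**Figure D2:**
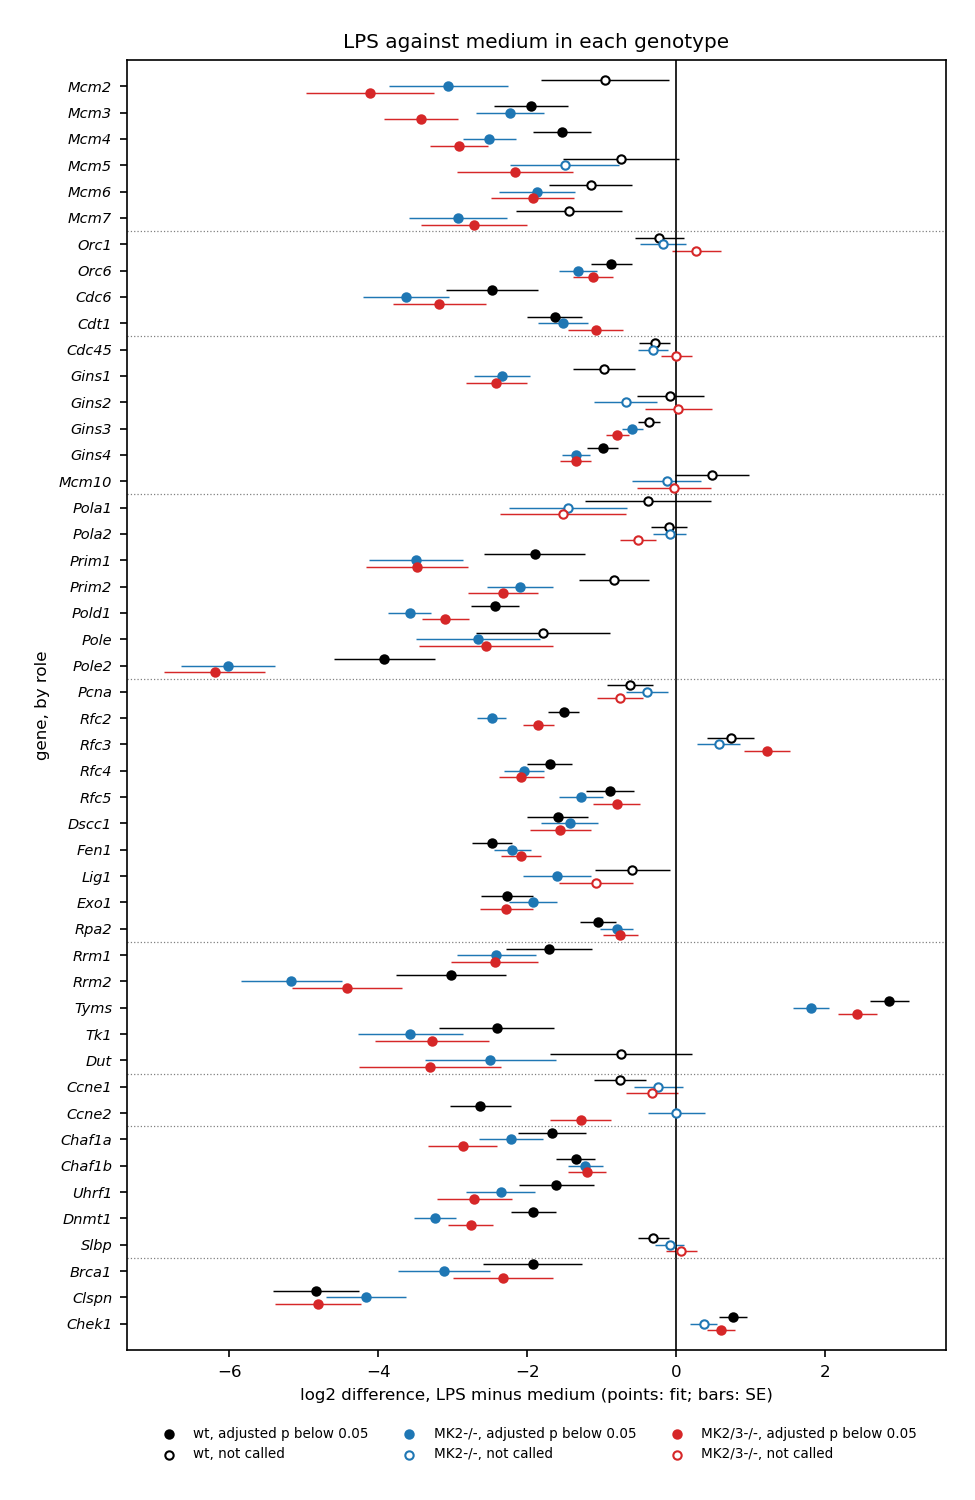
Fitted log2 difference of LPS minus medium (points) with its standard error (bars) for the 48 genes in wt (black), MK2-/- (blue) and MK2/3-/- BMDM (red). Filled points passed an adjusted p of 0.05, which were 28, 35 and 38 genes, and all but Tyms, Chek1 and Rfc3 lie left of 0.

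**Figure D3:**
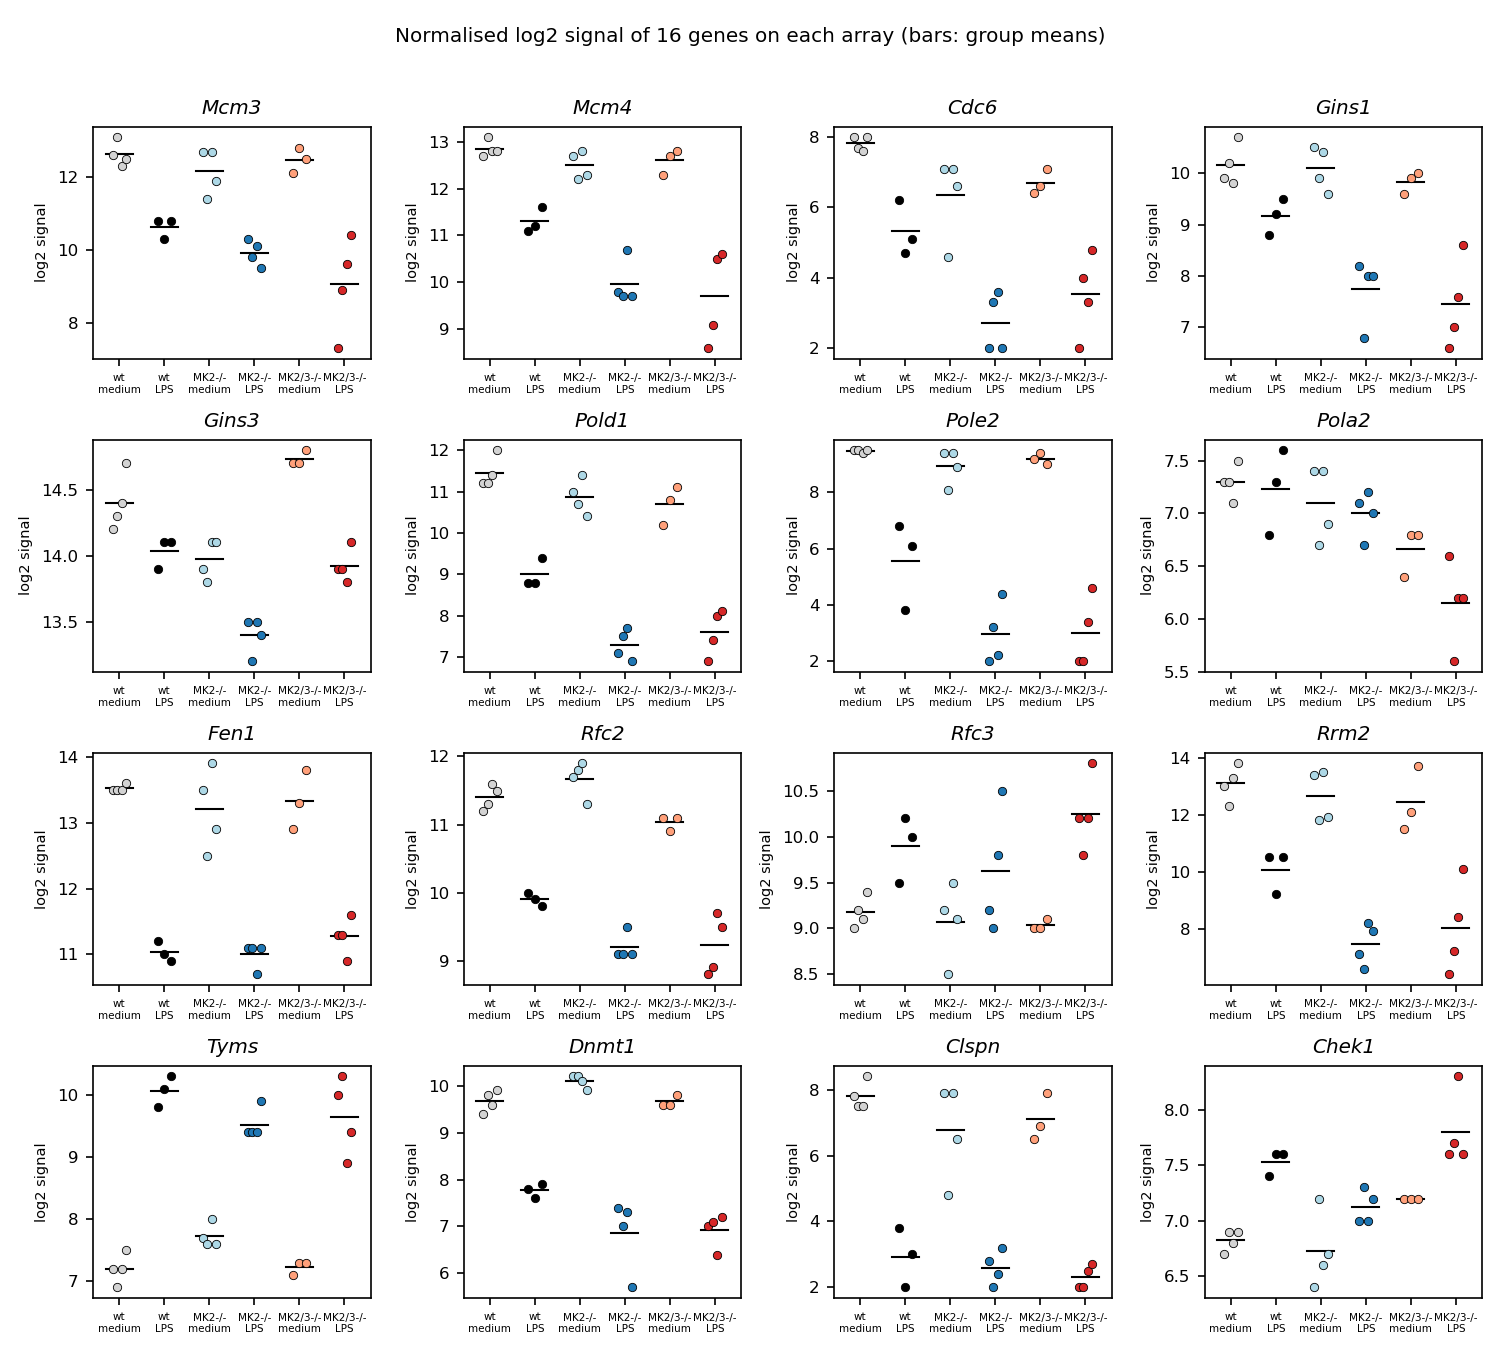
Log2 normalised signal (vertical axes, which differ in range) of 16 genes on each array by genotype and treatment, with 1 point per array and a bar at each group mean. LPS arrays lie below medium arrays for most genes and above them for Tyms, and Fen1 lies at 10.7 to 11.6 with LPS in every genotype, whereas Pold1 lies at 8.8 to 9.4 in wt and 6.9 to 8.1 in the knockouts.

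With LPS, genotypes were compared next. Each genotype lay on 1 slide of its own, so differences of genotype and of slide cannot be told apart, here or in medium. Compared with wt, 11 members were lower and 0 were higher in MK2-/- BMDM, set against 7.10% and 4.54% of all genes, and in MK2/3-/- BMDM 18 were lower and 0 were higher, compared with 14.0% and 9.65%. The median difference of the members was -0.71 and -0.98, and of all genes -0.03 and -0.02. Lower in both knockouts were Mcm2, Mcm4, Mcm6, Cdc6, Gins1, Prim2, Pold1, Pole2, Rfc2 and Rrm2. Gins3 was called in MK2-/- alone, and Mcm3, Pola2, Prim1, Rfc4, Dut, Chaf1a, Uhrf1 and Brca1 were called in MK2/3-/- alone. Both comparisons share the wt arrays. Pold1 had the smallest adjusted p among the members in either knockout, at a log2 difference of -1.70 (SE 0.32, limma adjusted p = 0.00422) in MK2-/- and -1.41 (SE 0.32, adjusted p = 0.00399) in MK2/3-/- BMDM, where every knockout array (6.9 to 8.1) was below every wt array (8.8 to 9.4). Gins1 differed by -1.43 (adjusted p = 0.0310) and -1.75 (adjusted p = 0.00497), again without overlap. Mcm4 (NM_008565) had 11.1, 11.2 and 11.6 with LPS in wt, 9.8, 9.7, 10.7 and 9.7 in MK2-/- and 8.6, 9.1, 10.5 and 10.6 in MK2/3-/- BMDM. In medium it had 12.7, 13.1, 12.8 and 12.8 in wt, 12.7, 12.2, 12.8 and 12.3 in MK2-/- and 12.3, 12.7 and 12.8 in MK2/3-/- BMDM, so that only the LPS groups were apart. Its differences from wt were -1.30 (SE 0.39, adjusted p = 0.0390) and -1.60 (SE 0.39, adjusted p = 0.00650). Cdc6 differed by -2.61 (adjusted p = 0.0143) and -1.84 (adjusted p = 0.0391), and Rrm2 by -2.62 (adjusted p = 0.0301) and -2.06 (adjusted p = 0.0496). The sizes for Cdc6 are limited, as with LPS its probe was well above background on 2 of 3 wt arrays and 1 of 4 arrays of each knockout. Pole2, with no MK2-/- array above background, was at least 3.12-fold lower in MK2-/-, and Brca1 at least 1.19-fold lower in MK2/3-/- BMDM. Genes that fell with LPS without a called genotype difference included Fen1, at -0.07 and 0.19 (adjusted p = 0.888 and 0.645), and Exo1, an exonuclease, at 0.01 and -0.75 (adjusted p = 0.991 and 0.124). Chaf1b had -0.00 and -0.26, but its second probe gave -1.03 (adjusted p = 0.0776) and -1.39 (adjusted p = 0.0124).

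**Figure D4:**
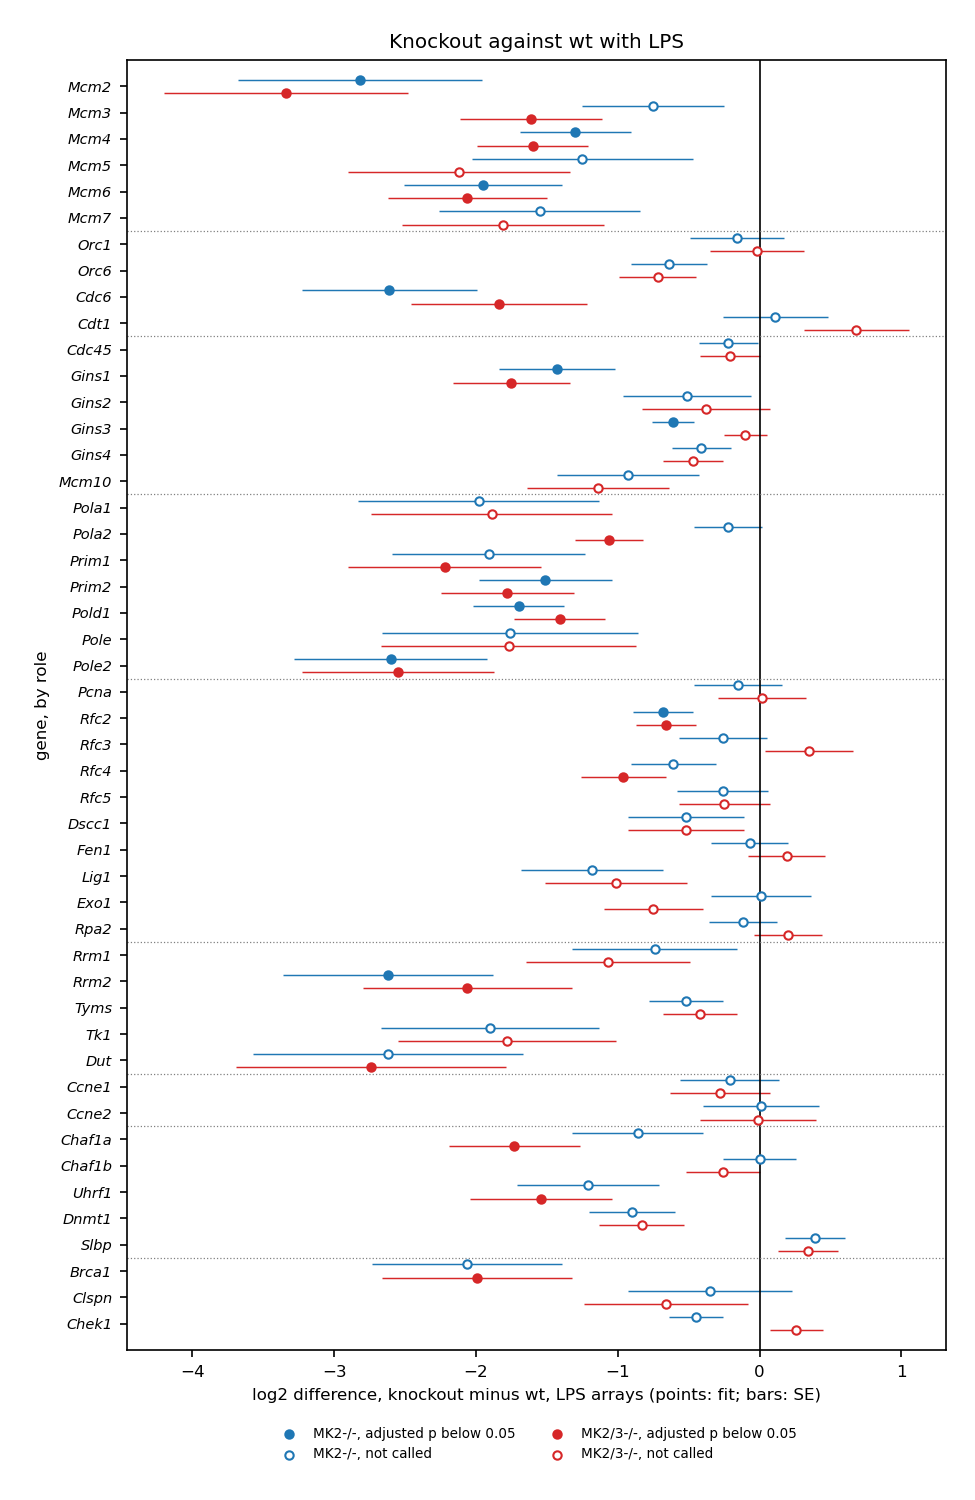
Fitted log2 difference from wt with LPS (points) and its standard error (bars) for the 48 genes in MK2-/- (blue) and MK2/3-/- BMDM (red). Filled points passed an adjusted p of 0.05, which were 11 and 18 genes, all of them left of 0, while the points of Fen1 (-0.07 and 0.19) and Pcna (-0.15 and 0.02) lie near 0.

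These genotype counts depended on few arrays, on the test and on the shared estimate of the spread. With age as a covariate, 5 members were lower in MK2-/- and 18 in MK2/3-/- BMDM, and the methods' t-test after adjustment called 0 and 0 (21 and 9 unadjusted). With only the groups compared in the fit, 5 members (Mcm2, Mcm4, Cdc6, Pold1 and Rrm2) were lower in MK2-/- and 0 in MK2/3-/- BMDM. The 11 became 4, 6 and 2 without replicate 1, 2 or 3 of wt with LPS and 5, 4 and 6 without replicate 1, 2 or 4 of MK2-/- with LPS. The 18 became 9 and 8 without replicate 1 or 3 of wt with LPS, and 9 and 10 without replicate 1 or 2 of MK2/3-/- with LPS. Without the 2 arrays against their labelled sex, 12 members were lower in MK2-/- BMDM and 17 in MK2/3-/- BMDM, with Pole2 (-2.34) lost in the first and Rrm2 (-2.06) in the second. Under 75th percentile scaling 14 were lower in MK2-/- and 21 lower and 1 higher in MK2/3-/- BMDM, while all genes split into 13.6% higher and 7.75% lower, and 21% and 15.7%. The second probe of Cdc6, above background on 11 arrays, gave -0.56 and -1.03 (adjusted p = 0.567 and 0.227), and that of Uhrf1 gave -2.19 (adjusted p = 0.0327) in MK2-/- but 0.40 (adjusted p = 0.686) in MK2/3-/- BMDM.

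The knockouts differed little from each other in these genes with LPS. Chek1 and Gins3 were higher and Pola2 was lower in MK2/3-/- than in MK2-/- BMDM, compared with 7.75% higher and 5.84% lower among all genes, and the median of the members was -0.01. Chek1 differed by 0.71 (SE 0.18, limma adjusted p = 0.0125) and Gins3 by 0.51 (SE 0.14, adjusted p = 0.0198). Pola2 (NM_008893), the regulatory subunit of polymerase alpha, had 6.8, 7.3 and 7.6 with LPS in wt, 7.1, 6.7, 7.2 and 7.0 in MK2-/- and 6.6, 5.6, 6.2 and 6.2 in MK2/3-/- BMDM. In medium it had 7.3, 7.3, 7.1 and 7.5 in wt, 7.4, 6.7, 7.4 and 6.9 in MK2-/- and 6.4, 6.8 and 6.8 in MK2/3-/- BMDM. With LPS all MK2/3-/- arrays were below all others, at -0.84 (SE 0.22, adjusted p = 0.0171) against MK2-/- and -1.06 (SE 0.24, adjusted p = 0.00412) against wt. None of the 3 genes was called with only these groups in the fit. The second probe of Uhrf1 was called here (2.59, adjusted p = 0.00643), unlike its first (-0.33, adjusted p = 0.706).

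In medium few replication genes passed the test between genotypes, although most lay below wt. After quantile normalisation, the difference from wt was negative for 41 of 48 members in MK2-/- (median -0.32) and for 42 in MK2/3-/- BMDM (median -0.48), compared with 11229 and 11581 of all 22326 genes (medians -0.00 and -0.02). Both comparisons share the wt arrays in medium. Ccne2 was the member called lower in MK2-/- BMDM than in wt, compared with 8.88% of all genes called, and with no MK2-/- array above background the difference was at least 1.49-fold (fitted -2.63, SE 0.38, limma adjusted p = 0.00132). Its probe was above background on 3 arrays, the fewest that the filter allows and none of them of MK2-/-, so that it was tested only through the groups where it is high and the call is given as a description. Without the 2 arrays against their labelled sex 2 members were called here. No member was called between MK2/3-/- and wt, compared with 2.02% of all genes, although 9 had an unadjusted p below 0.05 in limma and the methods' t-test found 8 at the same unadjusted threshold and 0 after adjustment. Between the knockouts only Gins3 was called, compared with 2.83% of all genes. Gins3 (NM_030198), the GINS subunit also known as PSF3, had in medium 14.2, 14.3, 14.4 and 14.7 in wt, 13.9, 13.8, 14.1 and 14.1 in MK2-/- and 14.7, 14.7 and 14.8 in MK2/3-/- BMDM. With LPS it had 13.9, 14.1 and 14.1 in wt, 13.5, 13.2, 13.5 and 13.4 in MK2-/- and 13.9, 13.9, 13.8 and 14.1 in MK2/3-/- BMDM. The MK2-/- arrays were the lowest at either treatment, and the difference of MK2/3-/- from MK2-/- in medium was 0.71 (SE 0.15, adjusted p = 0.0105). Relative to wt with LPS, MK2-/- lay at -0.61 (SE 0.15, adjusted p = 0.0160) and MK2/3-/- at -0.10 (adjusted p = 0.650). Gins3 fell with LPS in the knockouts (-0.59 and -0.79), which became 0.10 and 0.07 under 75th percentile scaling, where the median of all genes was 0.28 and 0.29. Without replicate 2 or 3 of MK2/3-/- in medium, 0 members were called between the knockouts, without replicate 1 there were 2, and without replicate 3 there was 1 between MK2/3-/- and wt. Without replicate 3 of MK2-/- in medium 2 members were lower in MK2-/- than in wt, and under 75th percentile scaling all genes split into 18.4% higher and 3.52% lower in MK2-/-, and 17.2% and 1.89% in MK2/3-/- BMDM, compared with 5.75% and 3.14%, and 1.5% and 0.524%. Members called under that scaling went both ways, with 1 higher and 2 lower in MK2-/- than in wt, and 1 higher and 1 lower in MK2/3-/- BMDM.

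Whether the LPS response itself differed between genotypes was tested as an interaction, in which an additive effect of the slide cancels. Of the members 0 were called in all 3 comparisons by limma, as were 0.00% of all genes for MK2-/- against wt, 0.690% for MK2/3-/- against wt and 0.0672% for the knockouts against each other. At an unadjusted p below 0.05 there were 8, 7 and 2 members, and without replicate 3 of MK2/3-/- in medium 1 member was called in each knockout against wt. The response was more negative than in wt for 35 members in MK2-/- and 34 in MK2/3-/- BMDM (medians -0.61 and -0.42), compared with 12577 and 11928 of all 22326 genes (medians -0.08 and -0.04), and both counts share the wt arrays. The smallest adjusted p was that of Ccne2 (2.63, SE 0.57, adjusted p = 0.193 in MK2-/- against wt), with most of its arrays not above background. Rfc2 (-0.98, SE 0.28, adjusted p = 0.369) and Dnmt1 (-1.32, SE 0.41, adjusted p = 0.416) followed in MK2-/- BMDM. In MK2/3-/- BMDM Mcm2 had the smallest p (-3.16, SE 1.22, adjusted p = 0.280), followed by Gins1 (-1.45, SE 0.57, adjusted p = 0.299).

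Other genes of the same processes were set beside the members. Like the members, these lists were chosen with earlier results of these data known, so their counts are given as a description. Of 55 further replication genes, 34 were lower and 5 were higher with LPS in wt, 36 and 7 in MK2-/-, and 37 and 7 in MK2/3-/- BMDM. The shares were 61.8%, 65.5% and 67.3% lower and 9.09%, 12.7% and 12.7% higher. Among all genes they were 23.6%, 27.2% and 28.0% lower and 18.7%, 17.6% and 20.3% higher. The falls included Dna2, a nuclease of flap processing (-5.37 in wt), Esco2, which acetylates cohesin in S phase (-4.93), and Gmnn, the inhibitor of Cdt1 (-4.15). The rises in all 3 genotypes were Ung, the uracil glycosylase (2.23 in wt), Dck, the deoxycytidine kinase (2.04), Samhd1, which degrades deoxynucleotides (1.64), Mcmbp, which binds the MCM ring (1.40), and Rnaseh2b (0.84), a subunit of ribonuclease H2. With LPS 9 were lower and 0 higher in MK2-/- than in wt, and 20 lower and 2 higher in MK2/3-/-, with Chtf18, a subunit of an alternative clamp loader, at -2.76 and -2.60. The lower genes were 16.4% and 36.4% of this list, compared with 7.10% and 14.0% of all genes. Of 15 genes of mitosis, 12, 13 and 14 were lower with LPS and 0 higher in the 3 genotypes, among them Bub1b (-3.76, -6.27 and -5.65), a checkpoint kinase of the spindle. Of 19 regulators of G1, 6, 7 and 6 were lower and 4, 6 and 4 higher. These shares, 31.6%, 36.8% and 31.6% lower and 21.1%, 31.6% and 21.1% higher, lay nearer to those of all genes. Cyclin D2 (Ccnd2) was higher in all 3 (5.38, 7.77 and 7.72), as was the inhibitor gene Cdkn1a (3.41, 2.85 and 3.75), and E2f2 was lower (-5.82, -5.94 and -5.49).

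**Figure D5:**
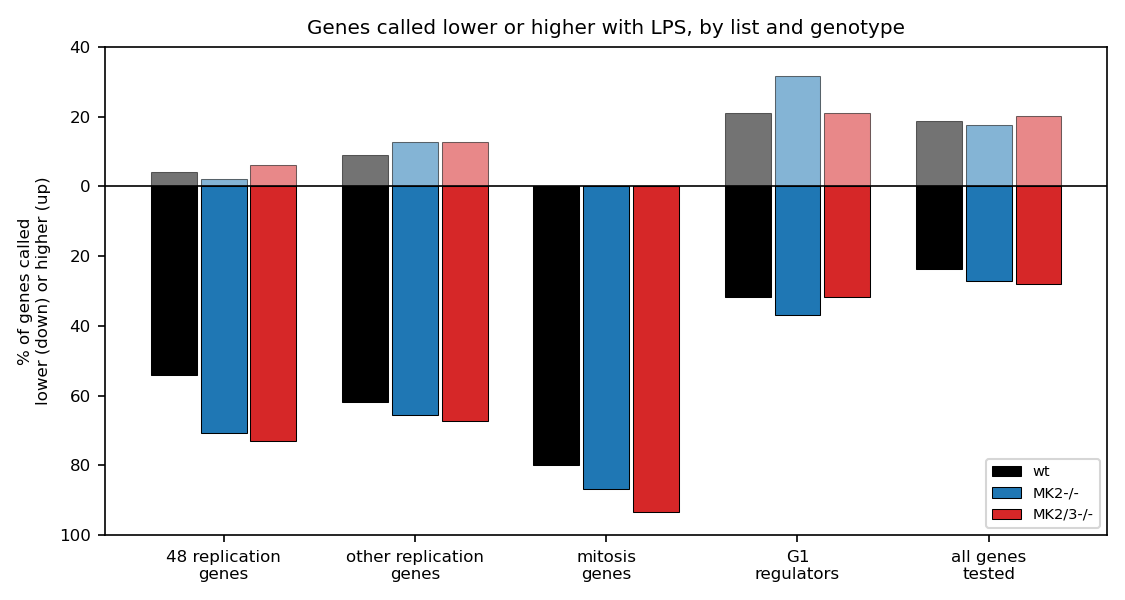
Share of genes called lower (bars down) or higher (bars up) with LPS, in percent of each list, in wt (black), MK2-/- (blue) and MK2/3-/- BMDM (red), for the 48 genes, 55 other replication genes, 15 genes of mitosis, 19 regulators of G1 and all 22326 genes tested. Of the 48 genes 54.2%, 70.8% and 72.9% were lower, compared with 23.6%, 27.2% and 28.0% of all genes.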

How the data were processed

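RNA of BMDM was hybridised to 1-colour Agilent arrays with 62976 spots. The deposited scanner files, written by Feature Extraction 11.0.1.1, hold the processed signal intensity, which the software had corrected for background. The authors' own table holds log2 values after quantile normalisation, centred per probe on the median over samples. It followed the scanner values with r = 0.992 to 0.999 per array after the same centring, had column medians of -0.07 to 0.08 and served as an alternative. Here, log2 intensity was quantile normalised over 22 arrays. Of 55681 probes other than controls, 28030 were used, which carried a RefSeq or GenBank accession and exceeded background clearly on 3 or more arrays. Each of 22326 genes was read from its brightest probe by mean signal, and symbols and promoter windows came from RefSeq tables matched by accession or symbol. Group means were fitted in limma 3.58.1 (R 4.3.3, data.table, version 1.17.8) with 1 spread per gene over 6 groups, and genes with a Benjamini-Hochberg adjusted p below 0.05 over all genes were called. The fit was tested on simulated data. A fold is given as a lower bound where no array of the dimmer group was well above background. The number of arrays limits the precision. Per the study's methods, the experiments at a time point were independent of each other. LPS and medium arrays of 1 experiment may share a donor and culture, and the main fit did not pair them. The p-values measure only the spread between these samples.

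All members are named by role. Values on every array are given for the member of each role with the largest LPS difference in wt, the leading genes of the genotype and interaction comparisons, and members called higher with LPS. The 48 members and the other gene lists were chosen with earlier results of these data known. Alternatives covered scaling, background correction, the authors' table, filters, choice of probe, the samples in the fit, array weights, variance settings, the methods' t-test, a minimum fold, replicate number or letter and age as terms, the 2 arrays against their labelled sex, and leaving out each array.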

Additional observations from a re-analysis of the deposited data

Results flagged for a closer look

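In groups of 4 arrays, 72 sets of values were examined for an array that stood apart from the other 3 by Dixon's test, which chance alone does in about 1 in 20 sets, and 5 were found. Replicate 3 of MK2-/- BMDM with LPS was apart for Mcm4, with a log2 signal of 10.73 against 9.72 to 9.84, and for Rfc2, with 9.51 against 9.06 to 9.11. This array was 1 of the 2 that went against their labelled sex. In the same group, replicate 2 was apart for Gins1, with 6.82 against 7.96 to 8.18, and replicate 4 for Tyms, with 9.91 against 9.41 to 9.44. In MK2/3-/- BMDM with LPS, replicate 3 was apart for Chek1, with 8.33 against 7.63 to 7.72.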

How the results depend on the processing

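Of 135 called values of members, 66 kept their direction and call under each of 18 settings that tested the gene and 22 fits without 1 array. Among them were 18 of 28 for LPS in wt, 28 of 35 in MK2-/- and 19 of 38 in MK2/3-/- BMDM, but 0 of 11 and 0 of 18 for the knockouts against wt with LPS. Mcm2, Cdc6, Pole2, Dut, Ccne2, Brca1 and Clspn were tested in only 17 settings, as their probes were not above background on all arrays. This includes the kept call of Ccne2 between MK2-/- and wt in medium. The cause of the changes was not tested. Counts are given in the order LPS in wt, MK2-/- and MK2/3-/-, with LPS MK2-/- and MK2/3-/- against wt and against each other, the same in medium, and the responses. Fits without 1 array gave 23 to 30, 34 to 36, 32 to 40, 2 to 14, 8 to 26, 2 to 4, 1 to 2, 0 to 1, 0 to 2, 0 to 1, 0 to 1 and 0 to 0 members. With only the groups compared, the counts from the fourth on were 5, 0, 0, 2, 2, 0 and 1. With array weights, MK2-/- against wt with LPS gave 24, the knockouts 5, MK2-/- in medium 2, the knockouts in medium 4 and the response of MK2/3-/- 2. The methods' t-test after adjustment gave 23 for LPS in MK2/3-/- and 0, 0 and 0 between genotypes with LPS, and unadjusted 21 and 9 for the knockouts against wt with LPS and 5, 8 and 4 in medium. Age as a covariate gave 5 for MK2-/- against wt with LPS. A minimum 2-fold change gave 0 between the knockouts with LPS and 0 in medium. In medium, 75th percentile scaling gave 3, 2 and 0, and MK2-/- against wt gave 3 with normexp, 0 with probes above background on all arrays, 2 with trend and robust variances and 2 without the arrays against their labelled sex. Reversed were Gins3 with LPS in MK2-/- (0.10) and MK2/3-/- BMDM (0.07) under 75th percentile scaling, and Uhrf1 in MK2/3-/- against wt (0.40) with the probe of the largest LPS change. With the mean of a gene's probes Cdc6 had -1.59 and -1.43 and Uhrf1 -0.57 against wt with LPS, no longer called. With replicate number as a block the counts were 31, 35, 39, 12, 20, 3, 1, 0, 1, 0, 0 and 0, and with the letter of the label as a block 31, 35, 40, 11, 19, 3, 1, 0, 1, 0, 0 and 0. Arrays of the same number deviated together (r over 0.1) in 7 of 10 pairs and those of the same letter, all of 1 age per pair, in 7 of 10, compared with 5 of 30 pairs of other numbers and 5 of 30 of other letters. Not every pair passed, so the numbers were not taken as a pairing in the main fit. This does not show that LPS and medium arrays were unpaired, and both arrays against their labelled sex shared a number and a letter. No count moved by over 1.5 times under either block. Genes at the lower end of the signal (Cdc6, Pole2, Ccne2, Clspn and Brca1) were above background on few LPS arrays, which limits their values.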
